A study of Mus musculus with 6 samples.

Results

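The distal part of mouse chromosome 19 carries a run of expressed genes whose RNA lay higher in tumour cells titled KPSC than in those titled KPC, by a median of 1.41-fold. Its members run from Aldh18a1, which starts at position 40550257 of chromosome 19 (GRCm38, the mm10 build), to Atrnl1, which starts at 57611034, under an upper limit of 58000000. They are the genes of that interval that had a mean normalised read count of at least 50 over the 6 libraries. Of 18185 genes with values, 12212 reached that mean, and 115 of them were members; 3 genes of the interval were set aside and are not reported here. The interval was chosen by its measured fold changes in the comparison of KPSC with KPC described here, and members were selected on position and mean level within it. The fold changes and calls of members therefore describe the interval and are no independent support for it. Members had to start inside the limits and reach the mean, whichever way they differed. That mean covers both groups, so a large difference could itself bring a low gene in. Pdzd7, 2310034G01Rik, Gm19557 and Nrap, with KPC means of 33.1, 25.9, 34.0 and 3.03, reached it only through KPSC. Afap1l2, with a KPSC mean of 46.3, reached it only through KPC.

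RNA was sequenced in bulk from tumour cells sorted out of orthotopic pancreatic ductal adenocarcinomas, which grow in the organ of origin, in C57BL/6 mice, and collected after about 10 to 14 days. There were 3 libraries titled KPC and 3 titled KPSC. The genotype field gives a Setd2 knockout for the KPC titles and a wild type for the KPSC titles. Setd2 is a histone methyltransferase. The labels spell out neither the letters of the titles nor any other allele, driver, sort marker or cell clone, so titles name the groups and nothing is read from the genotype field about direction. The normalised read counts of Setd2 were 1338, 1099 and 1046 in KPC and 859, 908 and 1042 in KPSC (log2 -0.31, not called), so the libraries labelled as knockout did not have the lower level of its RNA. Where in the gene the deletion lies is not given, and reads over the whole gene do not show whether it is present. Whether each library is a separate animal is not stated, so the replicate spread behind every p-value may be technical.

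Most genes on a chromosome are transcribed from their own promoters, and neighbours often have unrelated functions. What neighbours share is their stretch of DNA, with its dosage, its replication timing and its chromatin. Mouse distal chromosome 19 corresponds to a part of the long arm of human chromosome 10 and holds genes of NF-kB, Wnt, Hedgehog and RAS signalling together with many housekeeping genes. The files hold RNA and no DNA measurement.

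The libraries held 14664123 to 17748954 reads over the genes listed. Values are the deposited normalised read counts, and a log2 fold change is the KPSC mean minus the KPC mean of log2(value + 1), a scale that understates changes of low genes. The libraries differed in their cell mixture. Acinar enzyme genes held 0.994% to 7.51% of reads in KPC while KPSC replicate 1 had 19.2%, replicate 2 had 9.93% and replicate 3 had 0.408%. Markers of tumour epithelium (Epcam, keratins and others, all 8 with values) held 0.395% to 0.489% of reads in KPC and 0.632% to 0.786% in KPSC. All 8 pan-leukocyte markers were also detected, at 0.128% to 0.146% in KPC and 0.0692% to 0.11% in KPSC, so the sorted cells were not free of leukocyte RNA. The 8 fibroblast markers held more, at 0.883% to 1.08% in KPC and 0.546%, 0.797% and 1.49% in KPSC replicates 1 to 3. KPSC replicate 3 also held muscle RNA, with Acta1, skeletal muscle actin, at 19875 normalised reads beside at most 5.59 in any other library. In bulk RNA, fewer cells of a type and less RNA per cell cannot be told apart.

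All 115 members were measured in enough libraries to be tested, and 100 had a log2 fold change above 0, as 50.6% of all genes tested did. Their median was 0.49, with quartiles of 0.29 and 0.67. Against the fit over the whole table, 58 members were called higher in KPSC, 3 were called lower and 54 were not called (limma, Benjamini-Hochberg adjusted p under 0.05 over all genes). Over all 16739 genes tested, 7.61% were called higher and 6.76% lower, and among those with a mean of at least 50 the shares were 9.35% and 8.24%. edgeR on the recovered reads called 57 members higher and 3 lower, beside 9.03% of all genes tested and 9.7% of those with a mean of at least 50 called higher. Every KPSC library lay above every KPC library for 75 members, where 17.6% of all genes tested did so, and below for 6, where 17.2% did. In the authors' deposited table, 61 members had an adjusted p-value under 0.05 with a higher KPSC mean and 4 with a lower one, and 9.3% of all genes tested were higher in it.

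**Figure D1:**
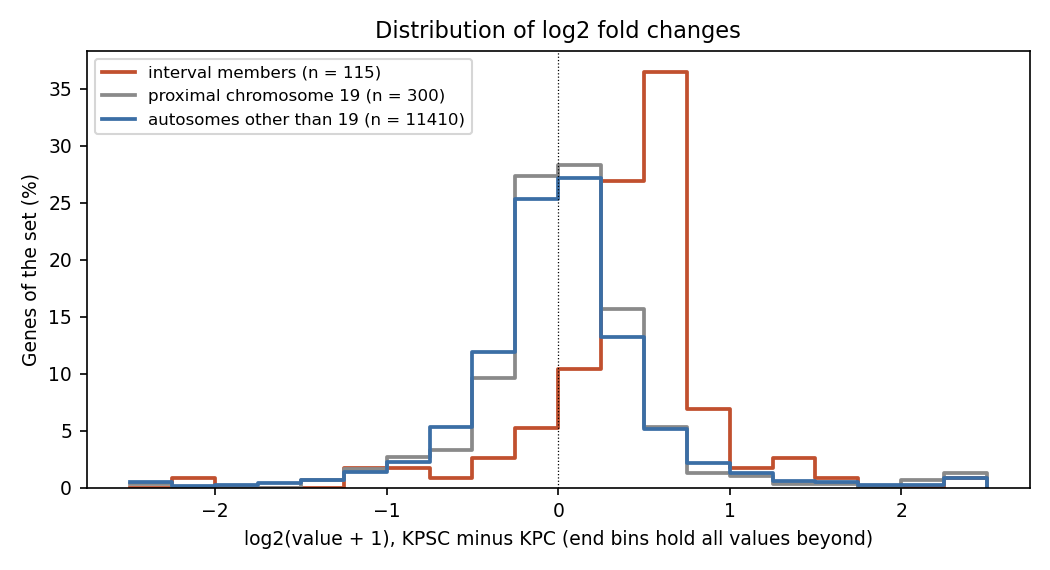
Share of genes (%, y axis) by log2 fold change, KPSC minus KPC on the log2(value + 1) scale (x axis), for the 115 members, the 300 expressed genes of chromosome 19 before the interval and 11410 expressed genes of the other autosomes. The centre of the members' distribution is moved to the right, around a median of 0.49, while 15 members remain below 0. The other sets centre near 0.

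Genes before the interval on the same chromosome were not displaced as a group. Of these, the 300 that were expressed had a median log2 fold change of 0.03, with 21 called higher and 18 lower. The 11410 expressed genes of the other autosomes had a median of 0.01. Their middle range was also wide, from -0.22 to 0.24, so the members were displaced as a group while spreading about as much as other genes. A log2 fold change between 0.25 and 0.75 was found for 73 members (63.5%), beside 63 of the 300 genes before the interval and 18.4% of those on other autosomes. Other chromosomes were displaced too. The 724 expressed genes of chromosome 1 had a median of 0.39, with 268 called higher and 34 lower, and the 308 of chromosome 18 had a median of -0.36, with 14 called higher and 103 lower. Chromosomes 3 and 5 each had a median of -0.24. Within chromosome 1, from 52 to 73 megabases, 86 expressed genes had a median of 0.48, with 36 called higher and none lower; the difference between these segments was not tested.

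The displacement was present in every library. Relative to each gene's mean over the 6 libraries, the median member lay 0.26, 0.25 and 0.21 above 0 on the log2 scale in KPSC (replicates 1 to 3), while the KPC medians were -0.21, -0.22 and -0.25. The groups of libraries did not overlap in this median. In KPC, 17, 19 and 25 of the 115 members lay above their own mean, and in KPSC 96, 97 and 89 did. Over the 300 genes before the interval the same medians were -0.06, 0.01 and -0.01 in KPC and 0.06, 0.05 and -0.04 in KPSC, and the groups overlapped.

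**Figure D2:**
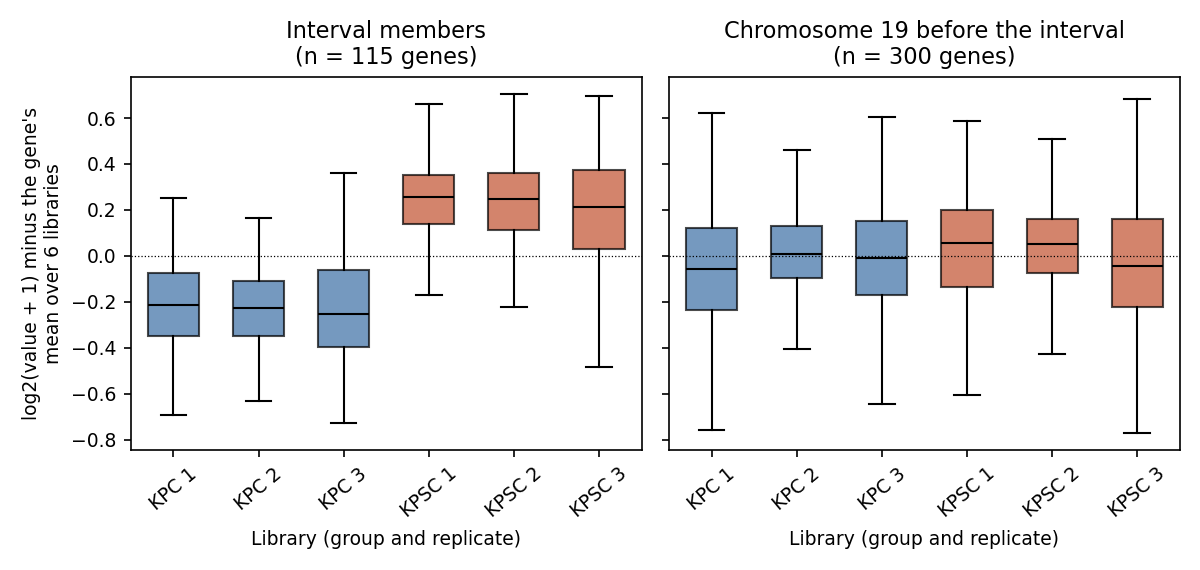
Level of each gene in each library relative to its mean over the 6 libraries (y axis, log2(value + 1) minus that mean) by library (x axis), for the 115 members and the 300 genes before the interval. Boxes span the quartiles with the median as a line, whiskers reach to 1.5 box lengths, and points beyond are not drawn; the members' medians lie at -0.25 to -0.21 in KPC and 0.21 to 0.26 in KPSC.

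The acinar share of reads differed between libraries of the same group. KPSC replicates 1 and 3, with 19.2% and 0.408% acinar reads, gave member medians of 0.26 and 0.21. With only libraries of 5% acinar reads or less, which are KPC replicates 1 and 2 and KPSC replicate 3 (assumed to vary like the other group), the median fold change of members was 0.42, and 25 members were called higher. That KPSC library is also the one with muscle RNA. Epithelial and leukocyte marker shares moved with the groups. The part of acinar, muscle, epithelial, fibroblast and leukocyte RNA in the members' values was not tested. Values scaled to library size alone lowered all expressed genes, to a median of -0.18. There the members' median was 0.30, which is 0.48 above that of all expressed genes as in the main scaling, but only 5 members were called higher. The count of 58 was 42, 34 and 31 without KPC replicates 1, 2 and 3 and 35, 29 and 64 without KPSC replicates 1, 2 and 3, while the median stayed between 0.46 and 0.50.

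Along the interval the members were higher from end to end, and least so at its start. The 18 members that start before 42 megabases had a median log2 fold change of 0.31, with 5 called higher. The medians were 0.49 for 17 members from 42 to 44 megabases, 0.52 for 18 members from 44 to 46 and 0.50 for 33 members from 46 to 48. No member started between 48 and 52 megabases. Beyond that gap the medians were 0.39 for 11 members from 52 to 54, 0.56 for 6 members from 54 to 56 and 0.34 for 12 members from 56 to 58 megabases. All 18 members between 44 and 46 megabases and all 6 between 54 and 56 had values above 0.

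**Figure D3:**
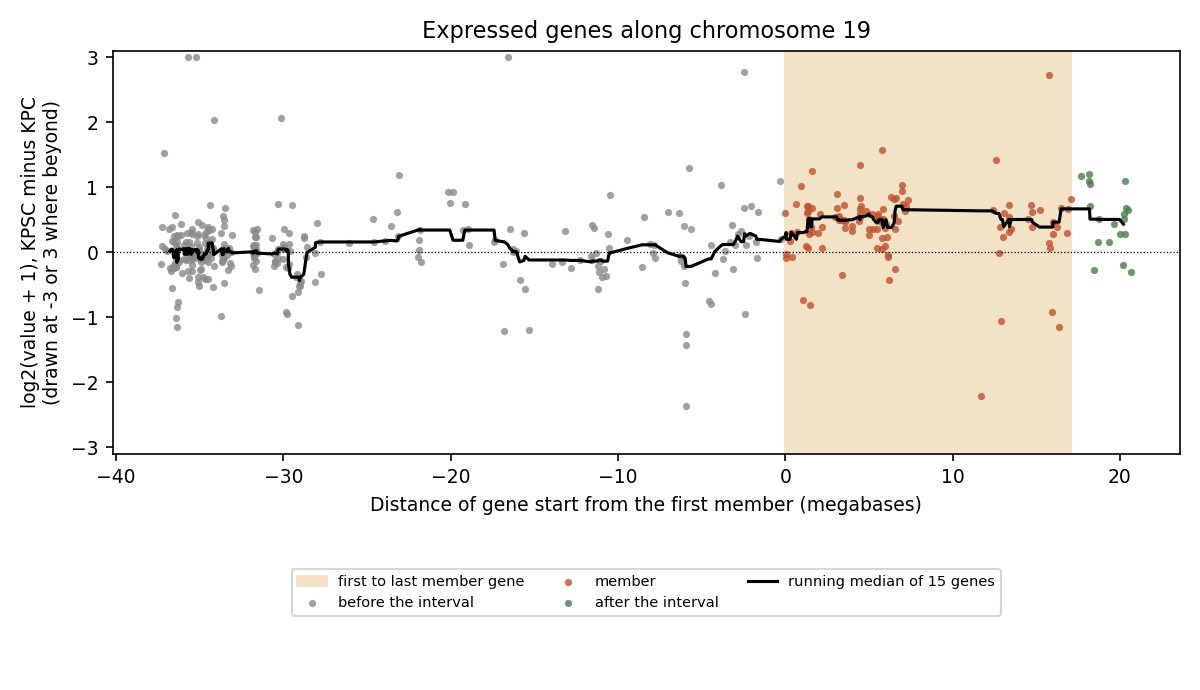
Log2 fold change, KPSC minus KPC (y axis), of the expressed genes of chromosome 19 by the distance of their start from the first member (x axis, megabases), with the span of the members shaded and a running median of 15 genes as a line. In windows of 2 megabases the median was 0.25 just before the interval (38 to 40 megabases), 0.31 to 0.56 across it and 0.47 in the last window of the chromosome.

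Neither limit marked a sharp step. The first members were Aldh18a1, an enzyme of proline synthesis (log2 fold change 0.61, SE 0.10), followed by Tctn3 (-0.02), Entpd1 (-0.08), Ccnj (0.17) and Zfp518a (0.30). Among the genes before them were Noc3l (0.16), Tbc1d12 (-0.08), Hells (0.62) and Pdlim1 (1.09). The last members were Afap1l2 (-1.15), Ablim1 (0.68), Fam160b1 (0.29), Trub1 (0.67) and Atrnl1 (0.82). After position 58000000, 19 expressed genes had a median of 0.51, with 6 called higher and none lower. Over all 19 the median did not drop at the upper limit, but it includes genes that spread widely between libraries. Of 9 genes from 58 to 60 megabases (median 0.71) only Gfra1 (1.17) was called. These 9 include the pancreatic lipase genes Pnlip (1.21, SE 1.37), Pnliprp1 (0.71, SE 1.5) and Pnliprp2 (1.04, SE 1.41). With them lies 1810018F18Rik (1.09, SE 1.33), and the median of 0.71 depends on these genes. The rest of this window, beside Gfra1, were Pdzd8 (0.51), Slc18a2 (0.16), Rab11fip2 (0.16) and Shtn1 (-0.27). Of 10 genes from 60 to 62 megabases (median 0.47), 5 were called higher. At the limit on level, Gm19557 (mean 50.3) and 2310034G01Rik (52.5) were just inside, and Frat1 and Morn4 (both 47.5) were just outside. Another 38 genes of the interval lay under a mean of 50, and the 27 of them that could be tested had a median log2 fold change of 0.37, with 19 above 0.

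The displacement was smaller and less regular in members of low level. The 38 members with the lowest means (50.3 to 352 reads) had a median log2 fold change of 0.40, the 38 in the middle 0.50 and the 39 with the highest means (up to 8245 reads) 0.56. Of these groups in the same order, 26, 36 and 38 members lay above 0 and 10, 19 and 29 were called higher. Members on the plus strand (61) had a median of 0.51 and those on the minus strand (54) of 0.49. The strand setting of the counts is not given, so reads of overlapping genes on opposite strands may be mixed. Such a gene with a mean of at least 10 overlaps 29 members, and the median over the others was 0.47.

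Member promoters were mixed in their sequence features. RefSeq promoters (GRCm38.p6, 250 bases before to 50 after a gene's start) were matched by symbol for 104 of 115 members. Promoters were called CpG-rich at a CpG observed-to-expected ratio of at least 0.6 and a GC content of at least 50%. CpG-rich promoters made up 73.1% for members, 67.8% for genes before the interval and 67.9% for all expressed genes with a promoter. Members with a CpG-rich promoter (76) had a median log2 fold change of 0.51 and the other 28 one of 0.46. Searched on both strands, the motif GGGCGG was in 67.3% of member promoters and 64.6% of those of all expressed genes, CCAAT in 40.4% and 38.8%, and TATAAA in 3.85% and 7.35%. Over all 32851 promoters of the table these shares were 35.7%, 37.4% and 13.6%. The following 5 promoters show how unlike the members are in sequence. Tm9sf3 and Actr1a are abundant members with CpG-rich promoters that were higher in KPSC. Add3 was also higher, with a CpG-poor promoter. Afap1l2 was lower in KPSC, and Nrap was high in a single library. All run 5′ to 3′ on the gene's strand, with CpG dinucleotides in capitals.
Tm9sf3 promoter (chr19:41263955-41264254, minus strand): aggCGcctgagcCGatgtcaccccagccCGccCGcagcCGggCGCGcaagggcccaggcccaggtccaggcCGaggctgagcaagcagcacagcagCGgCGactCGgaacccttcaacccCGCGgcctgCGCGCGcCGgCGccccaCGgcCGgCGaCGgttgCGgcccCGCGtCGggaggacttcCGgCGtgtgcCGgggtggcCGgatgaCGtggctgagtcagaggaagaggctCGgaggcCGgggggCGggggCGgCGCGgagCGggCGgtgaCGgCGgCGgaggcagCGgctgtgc
Actr1a promoter (chr19:46395692-46395991, minus strand): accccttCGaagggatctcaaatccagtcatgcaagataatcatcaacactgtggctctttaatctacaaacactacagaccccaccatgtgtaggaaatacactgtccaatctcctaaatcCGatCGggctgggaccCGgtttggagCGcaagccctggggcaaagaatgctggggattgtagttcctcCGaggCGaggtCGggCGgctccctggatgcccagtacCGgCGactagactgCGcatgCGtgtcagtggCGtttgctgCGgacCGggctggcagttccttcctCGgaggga
Add3 promoter (chr19:53140193-53140492, plus strand): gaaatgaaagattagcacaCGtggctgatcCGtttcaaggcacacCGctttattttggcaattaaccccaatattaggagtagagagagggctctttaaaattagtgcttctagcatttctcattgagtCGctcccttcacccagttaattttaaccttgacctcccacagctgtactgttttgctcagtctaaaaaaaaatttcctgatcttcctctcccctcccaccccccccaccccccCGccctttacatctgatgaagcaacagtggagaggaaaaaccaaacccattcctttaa
Afap1l2 promoter (chr19:57008526-57008825, minus strand): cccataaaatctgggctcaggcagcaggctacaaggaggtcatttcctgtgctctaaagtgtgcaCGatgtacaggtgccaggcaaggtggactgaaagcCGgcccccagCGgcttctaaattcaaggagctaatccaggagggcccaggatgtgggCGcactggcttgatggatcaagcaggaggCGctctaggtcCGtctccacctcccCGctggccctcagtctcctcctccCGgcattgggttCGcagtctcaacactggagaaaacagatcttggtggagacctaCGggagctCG
Nrap promoter (chr19:56389989-56390288, minus strand): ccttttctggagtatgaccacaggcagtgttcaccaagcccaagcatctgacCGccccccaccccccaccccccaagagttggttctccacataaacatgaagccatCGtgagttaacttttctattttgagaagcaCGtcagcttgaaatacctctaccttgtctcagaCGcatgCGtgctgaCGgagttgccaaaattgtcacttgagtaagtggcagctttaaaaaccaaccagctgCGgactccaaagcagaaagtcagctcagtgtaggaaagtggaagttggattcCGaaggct
They hold 43, 17, 5, 11 and 8 CpG in this order. For these 5, the RefSeq start lies within 6 bases of the gene start in the deposited table except for Afap1l2, where the distance is 347 bases.

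Among the called members with the highest fold changes were genes of unrelated roles. Add3, gamma-adducin of the actin-spectrin membrane skeleton, had 641, 624 and 510.0 normalised reads in the KPC libraries and 1651, 1575 and 1528 in the KPSC libraries. The KPSC libraries lay close together and far above all KPC libraries, a 2.69-fold difference (log2 1.43, SE 0.11). Stn1, a subunit of the CST complex that helps copy telomere ends, stood at 338, 368 and 345 in KPC and 795, 732 and 645 in KPSC (log2 1.04, SE 0.11). The noncoding gene Gm19557 lies antisense to Stn1 and had a log2 fold change of 0.94. Its mean went from 34.0 ± 2.39 to 66.6 ± 7.72 (SD, n = 3 per group). Whether reads of this pair were separated is not known. Avpi1, a gene induced by vasopressin, went from 627 ± 150.1 to 1483 ± 251 (log2 1.25). Of the other highest members, Pdzd7, a scaffold protein of inner-ear hair bundles, had 1.34 at means of 33.1 and 86.3, and it overlaps Lzts2 on the opposite strand. 2310034G01Rik had 1.58 at means of 25.9 and 79.0, and it lies within Mfsd13a (0.50, called higher) on the opposite strand. Gm19557, Pdzd7 and 2310034G01Rik reached the limit on level only through KPSC, so their place among the highest members is not independent of that limit.

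**Figure D4:**
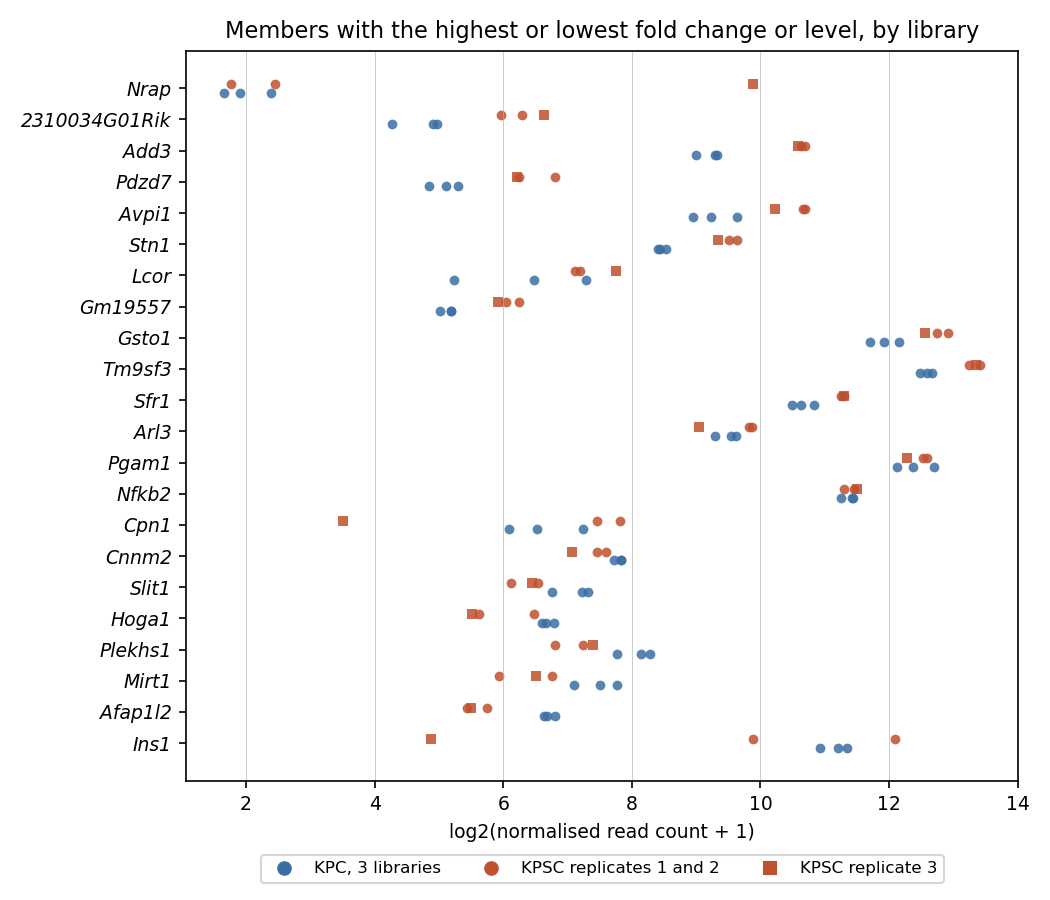
Log2(normalised read count + 1) in every library (x axis) for the members with the highest or lowest fold changes or the highest level per kilobase (y axis), with KPC libraries in blue, KPSC replicates 1 and 2 as red circles and KPSC replicate 3 as red squares. The groups are apart for Add3, Stn1 and Tm9sf3, while Nrap, Ins1 and Cpn1 are set apart by KPSC replicate 3.

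Among the members with the highest level per kilobase, some were displaced and some were not. Tm9sf3, a membrane protein of the Golgi apparatus, stood at 6536, 6187 and 5731 in KPC and 10916, 9693 and 10408 in KPSC, with no overlap (log2 0.75, SE 0.12). Gsto1, an omega-class glutathione transferase, went from 3924 ± 604 to 6850.4 ± 845 (0.81), and the recombination factor Sfr1 from 1611 ± 194 to 2495 ± 40.8 (0.64). Pgam1, the glycolytic phosphoglycerate mutase, had the highest level per kilobase of any member and stood at 5315, 6653 and 4448 in KPC and 6146, 5921 and 4965 in KPSC. Its groups overlapped (log2 0.07, SE 0.17). Nfkb2 (0.05) and Arl3 (0.09), a small GTPase of cilia, were also among the 8 highest and overlapped.

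Counts in the role lists that follow are to be read beside the 50.4% of all members that were called higher. Among all expressed genes tested the share was 9.35%. NF-kB signalling had 4 genes among the members, of which 3 rose. Chuk, the IKK-alpha kinase that drives processing of the Nfkb2 product, stood at 897, 858 and 704 in KPC and 1170.1, 1048 and 1258 in KPSC (log2 0.50, SE 0.12). Btrc, the F-box protein that recognises phosphorylated IkB and beta-catenin, rose by 0.63 and the ubiquitin ligase Trim8 by 0.38. Nfkb2, which encodes the precursor p100 and the subunit p52, stood at 2441, 2784 and 2746 in KPC and 2529.7, 2794 and 2902 in KPSC. It was not displaced with its neighbours, and its SE was 0.10. In the Wnt and Hedgehog list, 3 of 5 rose and none fell. Lzts2, a negative regulator of beta-catenin, rose by 0.84, the Wnt transcription factor Tcf7l2 by 0.65 and Sufu, which holds Gli factors inactive in Hedgehog signalling, by 0.52. Sufu stood at 789, 779 and 738 in KPC and 1147, 1179 and 985 in KPSC.

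Of 5 genes of RAS-ERK and receptor signalling, Shoc2 rose. Shoc2, a scaffold of the phosphatase that removes an inhibitory phosphate from RAF, stood at 779, 691 and 663 in KPC and 1133, 1174 and 1236 in KPSC (log2 0.73, SE 0.10). The ERK phosphatase Dusp5 had 0.24 with overlapping groups. Pik3ap1 and Blnk, adaptor proteins of leukocytes, had 0.32 and -0.08, beside pan-leukocyte markers with a median log2 fold change of -0.50 and 3 of 8 called lower.

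Metabolic genes of the interval were mixed, and their counts are to be read beside the 50.4% of all members that were called higher. In a list of 13 members for mitochondria and linked metabolism, 9 rose and none fell, with a median of 0.55. Examples are the sideroflexin Sfxn3 (0.71), the iron carrier Slc25a28 (0.69), the ribosomal protein Mrpl43 (0.59), the mitochondrial DNA helicase Twnk (0.54) and the heme A synthase Cox15 (0.49). The list also holds Got1 (0.55) and Xpnpep1 (0.66), whose products are cytosolic. Hoga1, of hydroxyproline breakdown, had -0.82 and Ndufb8 of complex I had 0.41, neither called. In 9 members for lipid and intermediary metabolism, 4 rose and 5 were not called. Acsl5, an acyl-CoA synthetase, went from 2419 ± 155 to 4022 ± 322 (0.73) and the nucleotidase Nt5c2 from 665 ± 20.6 to 1198 ± 85.3 (0.85). Entpd1, an ecto-nucleotidase of leukocytes and vessels, had -0.08.

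Genes for RNA and ribosome assembly all had values above 0. Of 10, 8 rose and none fell, within log2 fold changes of 0.35 to 0.72 for the whole list. Of all 115 members, 50.4% were called higher and 100 lay above 0. Rrp12, a factor of ribosome export, rose by 0.72, the pseudouridine synthase Trub1 by 0.67, the exosome subunit Exosc1 by 0.63, the histone chaperone Npm3 by 0.59 and the nucleolar protein Nolc1 by 0.59. Genes of genome maintenance and chromatin rose in 7 of 12 cases with none lower, with the polycomb protein Pcgf6 (0.82) and the cohesin subunit Smc3 (0.60) after Stn1. Lcor, a nuclear receptor corepressor, had 1.02 with overlapping groups, from 36.7 to 155 in KPC and 137 to 216 in KPSC. Mxi1, an antagonist of Myc, had -0.01.

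Of 12 members for membrane traffic and lysosomes, 7 rose and none fell, where 50.4% of all members were called higher. The SNARE Vti1a went from 416 ± 73.6 to 635 ± 3.81 (0.62), the palmitoyltransferase Zdhhc16 had 0.71 and Erlin1 of the endoplasmic reticulum 0.73. In the cytoskeleton and adhesion list 8 of 12 rose and 1 fell. Beside Add3, the kinase Slk rose by 0.75, the actin-binding Ablim1 by 0.68 and Actr1a, the Arp1 filament of dynactin, by 0.67. Slit1, a guidance ligand, had -0.73 and was not called. Of 4 cilium genes Cfap43 rose (0.71), but it overlaps Gsto1 and Gsto2 on the opposite strand. None of the 4 genes of cell death and protein turnover was called by limma (median 0.41), none by edgeR on recovered reads, and 0 had an unadjusted p under 0.05. Among them Neurl1a (0.84) had every KPSC library above every KPC library. The ubiquitin ligase genes Btrc (0.63) and Trim8 (0.38), both called higher, were counted in the NF-kB list instead.

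Against the trend, 15 members had a log2 fold change below 0, and 3 of these were called lower. Afap1l2, an actin-filament adaptor of Src signalling, stood at 102, 110.2 and 98.1 in KPC and 42.3, 52.5 and 44 in KPSC, with no overlap (log2 -1.15, SE 0.21). Plekhs1, a pleckstrin homology domain protein, stood at 283, 218 and 310 in KPC and 111, 151 and 168 in KPSC (-0.92, SE 0.21). The noncoding RNA Mirt1 stood at 136, 218 and 180 in KPC and 108, 60.3 and 89.8 in KPSC (-1.06, SE 0.27). The KPSC libraries were all below the KPC libraries for these 3, and all were among the 38 members with the lowest means. Counts of lower members were 1 without any one of the KPC replicates, and 0 with a replicate block.

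In a few members the KPSC libraries spread widely, with KPSC replicate 3 the highest or the lowest of all libraries. Nrap, an anchoring protein of striated muscle, had 939.6 normalised reads in KPSC replicate 3, the library with muscle RNA, beside 2.42 and 4.47 in the other KPSC libraries and 2.73, 4.21 and 2.16 in KPC. Its log2 fold change of 2.72 rests on that library. Ins1, an insulin gene of islet beta cells, stood at 2611, 1952 and 2359 in KPC and at 4341, 944 and 28.5 in KPSC, where the 10 islet markers, Ins1 among them, had mean log2 levels of 9.08, 7.03 and 3.15. Cpn1, a carboxypeptidase, and Habp2, a secreted protease, were at 10.4 and 13 in KPSC replicate 3 and at 175 or more in KPSC replicates 1 and 2. In KPC replicates 1 to 3, Cpn1 stood at 91.0, 67.3 and 149.9 and Habp2 at 104.6, 37.8 and 222.1. For both genes the 6 libraries ranked in the order of their acinar read shares. None of these was called, and the part of other cell types in these values was not tested.

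Many members encode subunits of complexes whose other subunits lie on other chromosomes, which the interval did not select. Over 14 complexes listed, 16 members had a median log2 fold change of 0.45, with 8 called higher and none lower. Over all 115 members, 50.4% were called higher. The 81 partner genes outside chromosome 19 had a median of -0.04, with 3 called higher and 4 lower. Because the interval was chosen by its fold changes in this comparison, a gap between members and partners was built in. Over all genes tested, 14.4% were called in either direction. Among those with a mean of at least 50 the share was 17.6%, with 9.35% higher and 8.24% lower. The shares were not tested against each other. In cohesin, the ring that holds sister chromatids together, the values were apart, with Smc3 at 0.60 (1131 ± 106 to 1711 ± 141) and its 8 partners between -0.23 and 0.16, none called by limma. The IKK partners of Chuk, Ikbkb and Ikbkg, had -0.04 and -0.08. TFIID had Taf5 at 0.55 and 13 partners between -0.35 and 0.21. The partners of Stn1 in CST, Ctc1 and Ten1, had 0.17 and -0.16, and those of Btrc in the SCF ligase had -0.04 to 0.23.

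**Figure D5:**
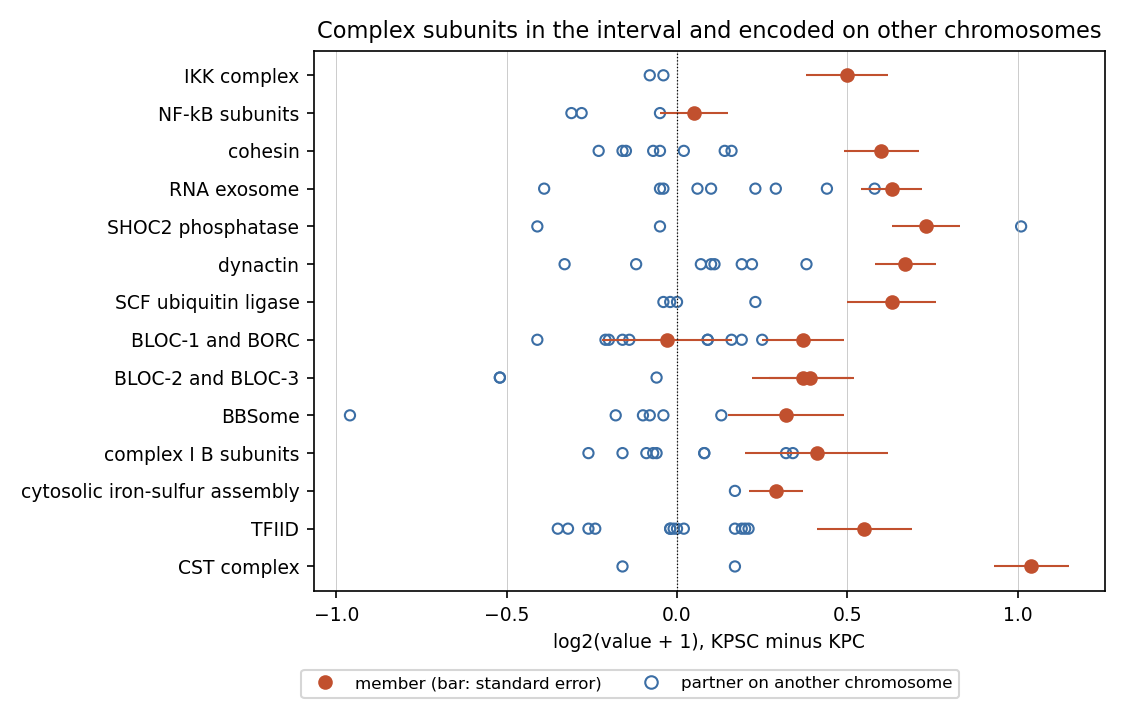
Log2 fold change, KPSC minus KPC (x axis), of members that encode a subunit of a complex (filled, bar as standard error) and of partner subunits encoded on other chromosomes (open) in 14 complexes (y axis). Most members lie to the right of their partners, with medians of 0.45 and -0.04. The members come from an interval chosen by its fold changes in this comparison.

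The partners that were called went both ways. Mras, the GTPase that binds Shoc2, went from 169 ± 14.1 to 346 ± 79.0 (log2 1.01, limma adjusted p = 0.0106), the exosome subunit Exosc2 from 483 ± 46.1 to 722 ± 46.6 (0.58, limma adjusted p = 0.0122) and Actr1b, a paralog of Actr1a, from 2134 ± 94.6 to 2781 ± 116 (0.38, limma adjusted p = 0.0253). Lower were Bbs7 of the BBSome (-0.96, limma adjusted p = 0.0124), the phosphatase Ppp1cc (-0.41, 0.0244) and the lysosome-related organelle factors Hps4 (-0.52, 0.0244) and Hps3 (-0.52, 0.043). Hps1 and Hps6, the members of those same organelle complexes, had 0.39 and 0.37 and were not called. An exact two-sided permutation test gave p = 0.1 for each of these 7 partners, the smallest that 3 against 3 libraries allow. Bbs7 and Hps3 lie on chromosome 3 and Ppp1cc and Hps4 on chromosome 5, whose expressed genes had medians of -0.24 each. Actr1b lies on chromosome 1, with a median of 0.39. Mras lies on chromosome 9 and Exosc2 on chromosome 2, whose medians were 0.01 and 0.07. The count of 7 called partners was 2 or 3 without any one library other than KPSC replicate 3, without which it was 10.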

How the data were processed

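The deposited table, made by the authors, gives normalised read counts (a signal: reads per gene divided by 1 factor per library), group means, p-values and adjusted p-values, and other gene annotation. The build was mm10 and CASAVA 1.7 is named, per the submitters' processing notes; for aligner, counter, annotation and strand setting: not given in the sources used here. Dividing out the factor returned whole reads for 100.0% of values (within 0.01). Genes that reached a value of 1 in 3 or more libraries were tested on log2(value + 1) with limma 3.58.1 (R 4.3.3, trend, Benjamini-Hochberg, 0.05) between 3 KPC and 3 KPSC libraries, without a block; the procedure was tested on simulated data. edgeR 4.0.16 and DESeq2 1.42.0 on recovered reads, other scalings, pseudocounts, filters, left-out libraries and a replicate block were alternatives. Named genes were the 5 on each side of both limits, the 8 highest, 8 lowest and 8 most abundant per kilobase, members by role with up to 4 values, complex subunits with their called partners, and further genes chosen after their values were seen (more members per role, the muscle genes). The members and lists were chosen with earlier results of these data known. Genes left out of the interval numbered 3, and some other genes under these rules are not reported here. Precision is limited by 3 libraries a group.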

Additional observations from a re-analysis of the deposited data

How the results depend on the processing

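The members' median stayed above 0 under every alternative run, while the median of genes before the interval turned negative under some. The 2406 genes called over the whole table became 1272 with scaling to library size alone, 1573 with only libraries of 5% acinar reads or less and 1251 to 3051 when 1 library was left out. The same settings gave 5, 25 and 29 to 64 members called higher (58), 1, 1 and 2 to 10 called partners (7), and 7, 23 and 25 to 47 called among the named members (41). Members called lower (3) numbered 1 to 3 with 1 library left out and 1 among members with a mean of at least 200. The members' median of 0.49 became 0.30, 0.42 and 0.46 to 0.50, and the median of genes before the interval, 0.03, became -0.16, -0.05 and -0.01 to 0.07. Scaling to library size lowered the higher share of all calls from 53.0% to 29.9%, and the cause was not tested. Extending the interval to the end of the chromosome, an alternative chosen after seeing the data, gave 64 members called higher. Same-numbered libraries did not deviate together (correlations -0.045, -0.178 and -0.281). With 3 libraries a group that differ in cell mixture, this cannot decide whether the numbers pair them. With a replicate block, 1014 genes, 21 members higher, 0 lower, 1 partner and 18 named members were called. With 3 libraries a group, small shifts of low members were not detectable.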

Other observations

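Past the interval, towards the end of chromosome 19, Prdx3, a mitochondrial peroxiredoxin, rose from 799 ± 23.8 to 1702 ± 97.3 normalised reads (SD, n = 3 per group; log2 fold change 1.09, limma adjusted p = 0.000348). The receptor gene Gfra1 rose from 292 ± 102 to 634 ± 22.6 (1.17), the kinase gene Grk5 by 0.68, Zfp950 by 0.65, Fam45a by 0.59 and the translation factor gene Eif3a by 0.51. The pancreatic lipase genes Pnlip, Pnliprp1 and Pnliprp2 lie there too, with log2 fold changes of 1.21, 0.71 and 1.04 that were not called. Pnlip ran from 3448 to 210423 reads among the KPSC libraries, beside acinar read shares of 0.408% to 19.2%. Those shares count the reads of these lipase genes, so the 2 measures are not independent. Before the interval, the 5 expressed genes from 16 to 18 megabases had a median of 0.41, with 1 called higher, and the 7 from 20 to 22 megabases a median of 0.75, with 2 called higher. Other stretches lay below 0, with a median of -0.13 over 14 genes from 28 to 30 megabases (11 negative) and of -0.18 over 12 genes from 34 to 36 megabases (3 called higher and 3 lower).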
